A study of Mus musculus with 2 samples.

Results

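The genes described here are 10 genes of non-canonical WNT signalling and planar cell polarity: the WNT receptors *Ror1*, *Ror2* and *Ryk*, and the core polarity genes *Celsr1*, *Celsr2*, *Celsr3*, *Vangl1*, *Vangl2*, *Prickle1* and *Prickle2*. They were taken by name, and every probe that the array files assign to one of these symbols was used, which gave 15 of the 39429 probes and 10 of the 29924 gene names on the array. Wild-type ureters of NMRI mice, an outbred stock, were dissected at E11.5, the embryonic day on which the ureter is a short epithelial tube in undifferentiated mesenchyme. The explants then spent 18 h on membranes, either in 10 µM IWP-2 or in DMSO at 2 parts in 1000 as the control. Pools of ureters were used for RNA, and the sex of the embryos was not determined. On each of 2 arrays a pool treated with IWP-2 competed with a control pool, with AlexaFluor647 on the treated pool in replicate 1 and on the control pool in replicate 2. Both arrays lay on 1 slide and were scanned together. The array reads out mRNA of whole explants, so neither protein, nor its place in the cell, nor the polarity of a cell was measured.

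IWP-2 blocks Porcupine, the acyltransferase that WNT ligands need before they can leave the cell, and it therefore acts on canonical and non-canonical ligands alike. Canonical WNT signals stabilise β-catenin and switch on target genes together with TCF/LEF factors. Non-canonical signals, for which WNT5A is the best known ligand, pass through ROR and RYK receptors to the cytoskeleton, to JNK kinases or to calcium. The planar cell polarity pathway orients cells within the plane of a tissue: CELSR cadherins bridge neighbouring cells, Frizzled with Dishevelled gathers on one side of the cell and VANGL with PRICKLE on the other. The question put to the data was whether the mRNA of these receptors and core components changed when the release of WNT ligands was blocked.

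A gene can be read through probes that lie far apart on its transcript. Stretches of 30 bases are printed for the probes of *Ror1*, *Celsr2*, *Celsr3* and *Prickle1*, 5′ to 3′ as the array files list them. Capitals mark the letters AATAAA, the sequence of the polyadenylation signal, and whether a marked copy acts as one was not tested.
Ror1 probe A_51_P453446, bases 31 to 60: tggtgcggaagcggcagctcttaccatgtt
Ror1 probe A_52_P212025, bases 13 to 42: tataagatgcacAATAAAtcctagaaatat
Celsr2 probe A_52_P350148, bases 31 to 60: ctggctctctgtctatgataccctcatctg
Celsr2 probe A_52_P360515, bases 25 to 54: gagcaggtgtagAATAAAggctcgaggagg
Celsr3 probe A_55_P2179587, bases 31 to 60: gcgctctgttttgggAATAAActtctatag
Prickle1 probe A_55_P1954758, bases 31 to 60: agggaggtgtttAATAAAggcttAATAAAc
The letters AATAAA stood in 4 of the 15 probes and in 12.6% of all probes, each 60 bases long. Their reverse complement, TTTATT, stood in 1 of the 15 and in 4.03% of all probes. G and C made up between 31.7% and 55% of the bases of the 15 probes, with a median of 38.3% against 41.7% over the whole array. All positions are given on mouse build mm9 as the files state them, and the exon or UTR in which a probe lies was not analysed here.

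None of the 9 members that could be tested changed past a false discovery rate (FDR) of 0.05 in limma, which was fitted over all genes with 1 probe a gene, the brightest. Over the whole array 355 of 20119 genes (1.76%) passed, so a count of 0 among 9 genes is close to this background and is no result about them. At an unadjusted p under 0.05, 1 of the 9 members (*Celsr3*) and 13.4% of all genes passed. By probe, 0 of 14 members passed the FDR, against 2.05% of all probes, and 2 of 14 had an unadjusted p under 0.05, against 12.8%. The 95% intervals of the 9 members reached at most 1.43-fold lower, for *Ror1*, and 1.44-fold higher, for *Celsr3*. Each interval holds for its own gene, rests on a spread that limma shares between genes, and widened to between -1.91 and 1.57 (log2) over the members when the rounded fold changes deposited with the series were used. Among all genes the smallest mean change that passed was 0.57 (log2). With 2 pools a condition, p-values rest on the difference between these 2 arrays and on the spread shared between genes. That difference holds pool, dye and array effects together, and no pools beyond these were measured.

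**Figure D1:**
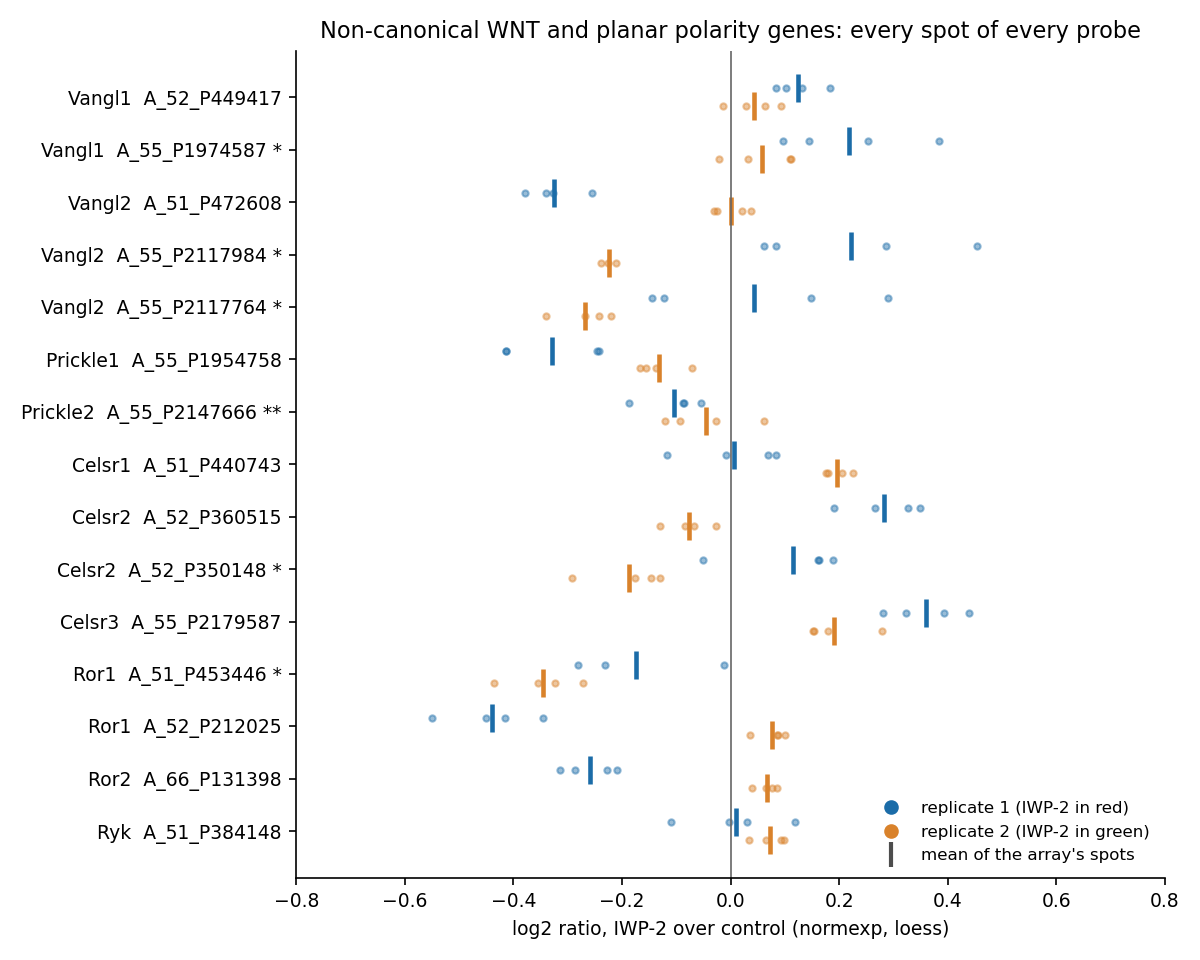
Log2 ratio of IWP-2 over control (horizontal axis) for all 15 probes of the 10 genes (rows). Points are single spots, vertical strokes the mean of an array's spots, blue replicate 1 and orange replicate 2. A single asterisk marks a probe that was not the brightest of its gene, and a double asterisk the *Prickle2* probe, which was not well above background. The SD among the spots of a probe on an array runs from 0.01 to 0.21, and for *Vangl2*, *Celsr2*, *Ror1* and *Ror2* probes the arrays lie on opposite sides of 0.

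The receptors did not pass the test, and *Ror1* shows how little the arrays can settle for a single gene. *Ror1* and *Ror2* encode receptor tyrosine kinases with a cysteine-rich domain that binds WNT5A. The brighter *Ror1* probe (chr4:100116284-100116343) gave processed intensities of 745 with IWP-2 and 1030 in the control on the array of replicate 1, and of 951 with IWP-2 and 902 in the control on that of replicate 2. Levels are intensities as the scanner software processed them, whereas log2 ratios here come from normexp and loess and can differ slightly from the ratio of the levels. The first array put the treated pool below its control and the second slightly above it. The log2 ratios were -0.44 and 0.08, the mean -0.18 ± 0.37 (SD, n = 2), and the limma interval ran from -0.52 to 0.16 (adjusted p = 0.75). All 4 spots of replicate 1 were below 0 and all 4 of replicate 2 above it, so the disagreement lay between the arrays and not between spots. Spots on an array hybridise the same 2 pools, so counts of spots here and below are not counts of replicates. The other *Ror1* probe (chr4:100114117-100114176), which starts at base 2508 of its transcript where the brighter one starts at base 4675, read 66.7 with IWP-2 and 73.3 in the control on the array of replicate 1. On that of replicate 2 it read 65.8 with IWP-2 and 88.4 in the control. Here the treated pool was below its control on both arrays, in 7 of 7 spots used, with log2 ratios of -0.17 and -0.35 and a mean of -0.26. This probe had an unadjusted p of 0.042 in limma and an adjusted p of 0.36, and its interval, -0.51 to -0.01, overlapped that of the brighter probe almost throughout.

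*Ror2* was read by 1 probe (chr13:53204795-53204854). Its intensities were 1080 with IWP-2 and 1307 in the control on the array of replicate 1, and 1437 with IWP-2 and 1376 in the control on that of replicate 2. As for *Ror1*, the treated pool was lower where it carried AlexaFluor647 and slightly higher where it carried AlexaFluor555. The log2 ratios of -0.26 and 0.07 gave a mean of -0.10, with an interval from -0.38 to 0.18 (limma, adjusted p = 0.89). *Ryk* encodes a WNT-binding receptor whose kinase domain is catalytically inactive. Its probe (chr9:102809441-102809501) read 7630.3 with IWP-2 and 7161 in the control on the first array, and 6992 and 6999 on the second. The pairs were close, the mean log2 change was 0.04 with an interval from -0.19 to 0.28 (limma, adjusted p = 0.96), and the spread between arrays, 0.05 (SD, n = 2), was the smallest of the 9 genes.

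**Figure D2:**
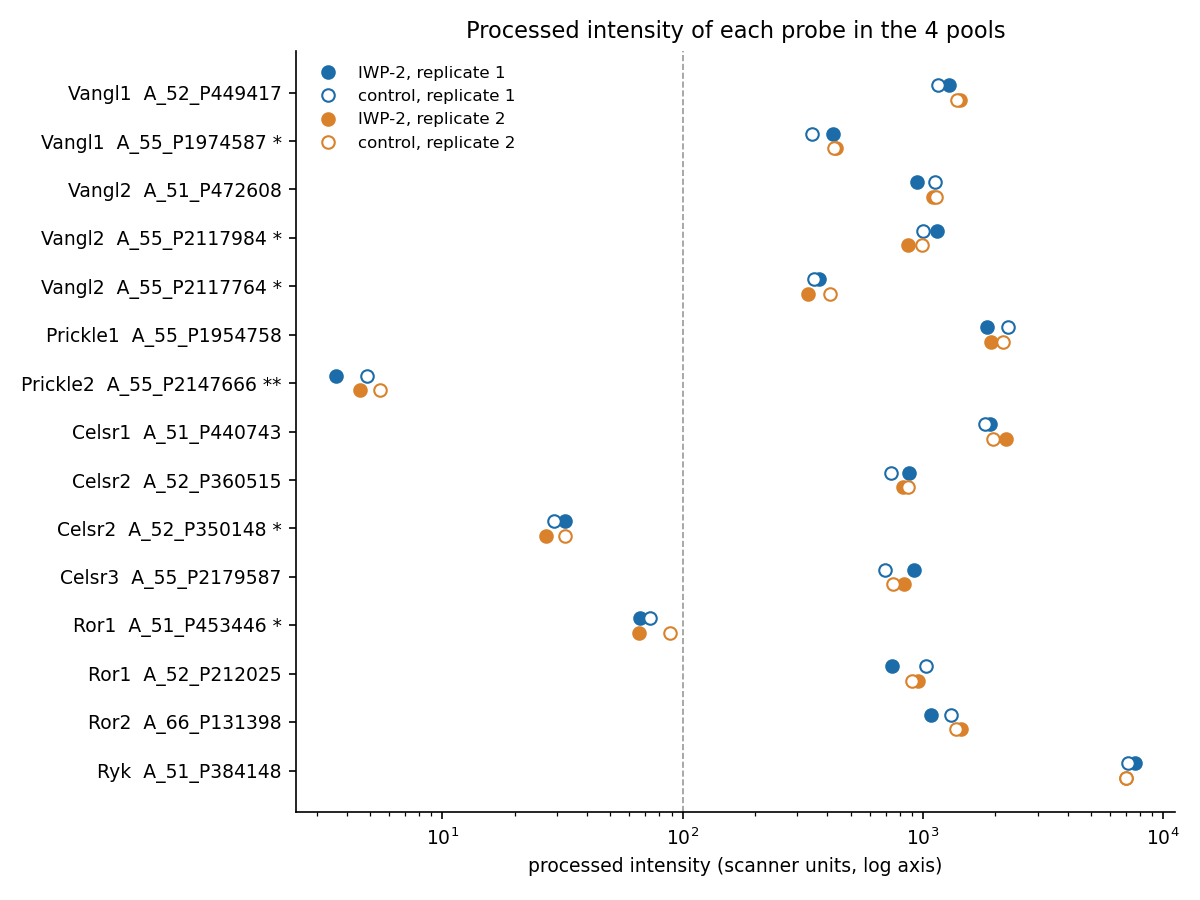
Processed intensity (horizontal log axis, scanner units) of the 15 probes in the 4 pools. Filled points are pools with IWP-2, open points control pools, colours the replicates, asterisks as in the plot of single spots, and the dashed line an intensity of 100. Positions compare the pools of 1 row only, since probes differ in how brightly they hybridise, and *Prickle2* lies below 6 in all pools.

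The CELSR cadherins, whose ectodomains bind each other across the border between cells, gave the highest mean change of the 10 genes in *Celsr3*. Its probe (chr9:108755235-108755294) read 916 with IWP-2 and 697 in the control on the array of replicate 1, and 837 and 748 on that of replicate 2. Both treated pools were above their controls, and 8 of 8 spots were above 0. The log2 ratios were 0.36 and 0.19, the mean 0.28 ± 0.12 (SD, n = 2), with an interval from 0.03 to 0.52, an unadjusted p of 0.034 and an adjusted p of 0.31 in limma. Of all genes tested, 12.1% had a mean change at least that large in either direction. *Celsr3* is best known from neurons, where it guides axons. Of 4 markers of neurons and neural crest (*Elavl4*, *Sox10*, *Stmn2* and *Tubb3*), 3 were higher with IWP-2 on both arrays, and their median log2 change was 0.36. None of the 4 passed FDR 0.05 in limma and 3 had an unadjusted p under 0.05, against 13.4% of all genes. Of the 2699 genes with such a p-value, 1745 were higher with IWP-2. The sign was the same on both arrays in 56% of all genes, in either direction. The summed intensity of the 4 markers was 17875 with IWP-2 and 13207 in the control on the first array, and 16079 and 13744 on the second. Such a sum weighs bright probes most and is no measure of the number of cells. The part of these cells in the value of *Celsr3* was not tested.

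*Celsr1*, expressed in many epithelia, was read by 1 probe (chr15:85729381-85729440), at 1901 with IWP-2 and 1809 in the control in replicate 1 and at 2210.4 and 1954 in replicate 2. The treated pools were level with or slightly above the controls. Log2 ratios of 0.01 and 0.20 gave a mean of 0.10 and an interval from -0.15 to 0.35 (limma, adjusted p = 0.85). *Celsr2* had 2 probes, and each of them changed sign between the dye-swapped arrays. The brighter one (chr3:108194096-108194155) read 876 with IWP-2 and 736 in the control in replicate 1, but 829 and 868 in replicate 2. Its log2 ratios were 0.28 and -0.08, the mean was 0.10 and the interval ran from -0.19 to 0.39 (limma, adjusted p = 0.88). The dimmer one (chr3:108198512-108198571) starts at base 7502 of its transcript, the brighter one at base 10153, and it read 32.4 with IWP-2 and 29.1 in the control, then 27.0 and 32.5. It gave 0.12 and -0.19, a mean of -0.04. Both probes put the treated pool higher in replicate 1 and lower in replicate 2.

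VANGL1 and VANGL2 are membrane proteins of the core complex that faces the Frizzled side of the next cell, and *Vangl2* is the gene mutated in the loop-tail mouse. *Vangl1* was read by 2 probes that ran the same way. The brighter one (chr3:101960720-101960779) gave 1282 with IWP-2 and 1155 in the control in replicate 1, and 1425 and 1390.4 in replicate 2. The other (chr3:101962130-101962189) gave 421 and 346, then 433 and 426. For each probe the treated pool was slightly above its control on both arrays, and 7 of 8 spots were above 0. The mean log2 changes were 0.08, with an interval from -0.15 to 0.32 (limma, adjusted p = 0.88), and 0.14.

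*Vangl2* had 3 probes, and they disagreed. The brightest by the mean of both channels (chr1:173931382-173931441) read 942 with IWP-2 and 1126 in the control in replicate 1, and 1101 and 1129 in replicate 2. Its log2 ratios were -0.33 and 0.00, the mean -0.16 with an interval from -0.44 to 0.12 (limma, adjusted p = 0.72). A second probe (chr1:173934502-173934561) read 1143 with IWP-2 and 1000.3 in the control in replicate 1 and then 866 and 996, for log2 ratios of 0.22 and -0.22. The third read 371 and 352 and then 334 and 410.1, for log2 ratios of 0.04 and -0.27. The first probe was thus lower with IWP-2 on the array of replicate 1 and level on the other, whereas the remaining probes were higher or level on the array of replicate 1 and lower on that of replicate 2. Means of the 3 probes lay between -0.16 and 0.00, and none passed the test.

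PRICKLE1 and PRICKLE2 are cytoplasmic LIM-domain proteins that bind VANGL at the membrane. *Prickle1* had the lowest mean change of the 9 genes tested. Its probe (chr15:93329546-93329605) read 1857 with IWP-2 and 2258 in the control in replicate 1, and 1915 and 2147 in replicate 2. Both treated pools were below their controls and none of the 8 spots was above 0. Log2 ratios of -0.33 and -0.13 gave a mean of -0.23 ± 0.14 (SD, n = 2), with an interval from -0.48 to 0.02 and an adjusted p of 0.43 in limma. The *Prickle2* probe (chr6:92325940-92325999) was not well above background in 14 of its 16 readings, and the remaining 2 were control readings of replicate 2. Its intensities were 3.62 with IWP-2 and 4.86 in the control in replicate 1, and 4.53 and 5.51 in replicate 2. At these levels neither pool gave a value to compare, and *Prickle2* was left out of the test. Its mRNA was near the limit of what this probe can show, which is not evidence that it is absent.

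**Figure D3:**
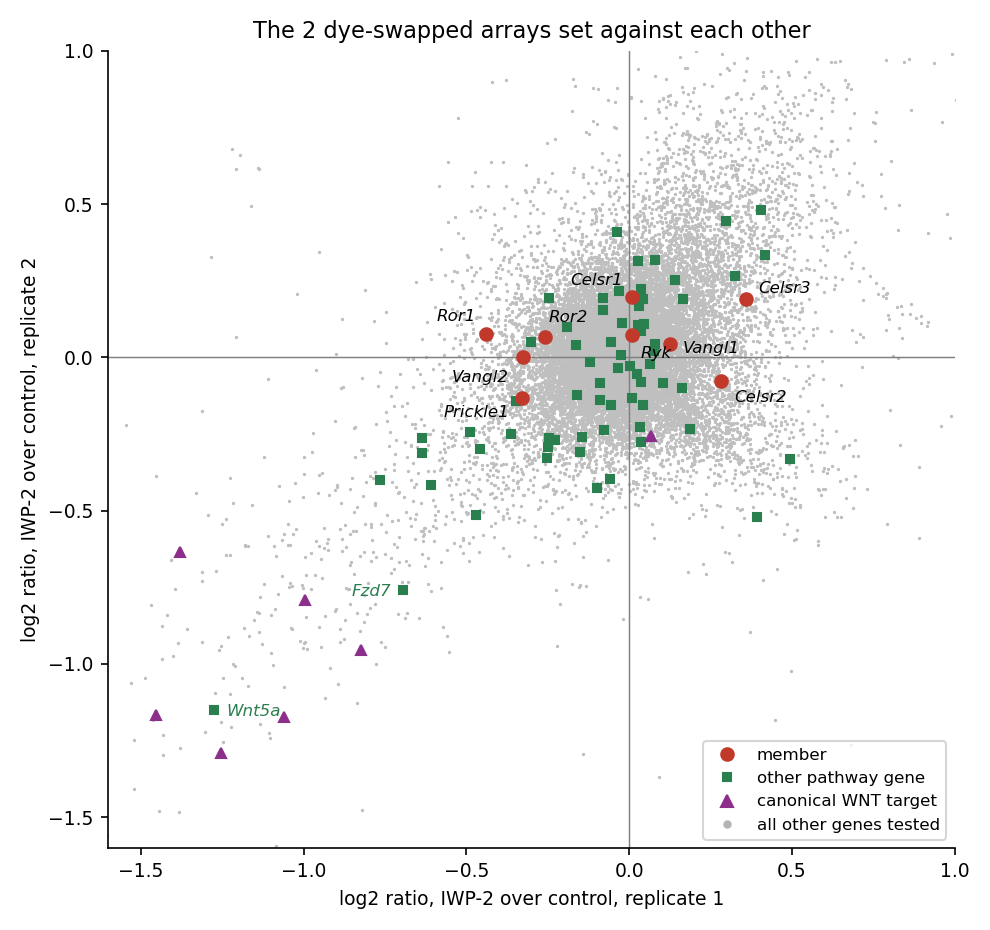
Log2 ratio of IWP-2 over control in replicate 1 (horizontal axis) and replicate 2 (vertical axis). Red points are the 9 members tested, green squares 66 other genes of the pathway, purple triangles 7 canonical WNT targets and grey points all other genes tested, of which 140 lie outside the axes. The members lie within 0.45 of 0 on both axes, whereas *Wnt5a*, *Fzd7* and 6 of the targets lie well below 0 on both.

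The 2 arrays agreed in sign about as often for these genes as for all genes. The sign was the same in 5 of the 9 members (*Vangl1*, *Prickle1*, *Celsr1*, *Celsr3* and *Ryk*), or 55.6%, and in 56.0% of all genes. The median SD between arrays was 0.14 over the members and 0.11 over all genes, and the median absolute change was 0.10 and 0.09. The median change was 0.04 over the members and 0.00 over all genes. Across all 20119 genes the log2 ratios of the arrays correlated with a Pearson's r of 0.465 and a Spearman's rho of 0.25, a description across genes that share their pools. A filter modelled on the study's cut-offs, an intensity of 100 and a fold change of 2 on each array, was applied to processed intensities. It was met by 0 of the 10 members and by 61 of the genes bright enough (0.419%), 50 lower and 11 higher with IWP-2. The paper reports more genes in each direction, so this filter only approximates the study's own. Of the 15 member probes, 12 were bright enough, and the largest fold difference of these on either array was 1.38, for *Ror1*.

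Of the other genes of the pathway, 68 in 7 lists, 66 could be tested, and 2 of them (3.03%, against 1.76% of all genes) passed FDR 0.05, both lower with IWP-2. *Wnt5a*, the main non-canonical ligand, read 276 with IWP-2 and 657 in the control in replicate 1, and 312 and 728 in replicate 2. Both treated pools were far below both controls. It fell by 1.21 on the log2 scale (interval from -1.45 to -0.97, limma, adjusted p = 0.0052). *Fzd7*, a Frizzled receptor used by canonical and non-canonical ligands, read 2340 with IWP-2 and 3826 in the control, then 2463 and 4213. The treated pools again lay below both controls, and it fell by 0.73 (interval from -0.96 to -0.49, limma, adjusted p = 0.025). In the same list of 12 ligands and co-receptors, 8 were lower with IWP-2 on both arrays and 1 higher, and the median was -0.25. With median centring in place of loess neither gene passed (limma, adjusted p = 0.058 for *Wnt5a* and 0.39 for *Fzd7*, at mean changes of -1.24 and -0.76), and *Fzd7* also did not pass with processed intensities (0.052), without the filter on dim probes (0.053) or with the deposited series table (0.093), at mean changes between -0.74 and -0.72 in these 3 settings. Averaged over all its kept probes, *Fzd7* had a smaller mean change, -0.54 (limma, adjusted p = 0.037), than at its brightest probe. *Gpc4*, a glypican that binds WNT ligands, had a mean of -0.58 (limma, adjusted p = 0.080) and *Wnt5b* one of -0.49 (limma, adjusted p = 0.073). Both passed when all kept probes were averaged, and *Wnt5b* also with a variance trend and robust prior and with the deposited series table. *Sdc4*, a syndecan, was the highest of this list, at 0.17.

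**Figure D4:**
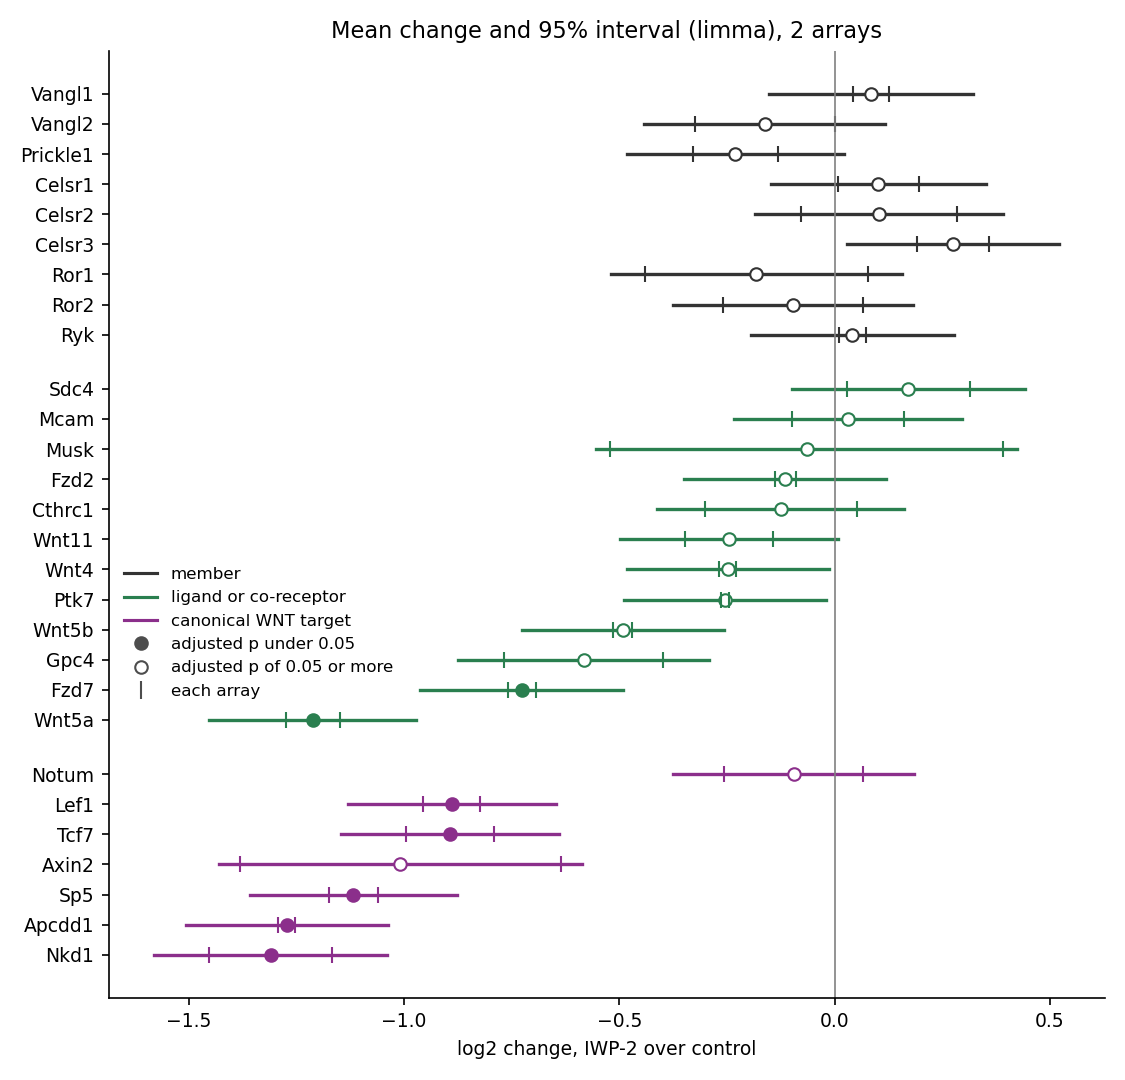
Mean log2 change of IWP-2 over control (horizontal axis) with its 95% interval from limma for 9 members (black), 12 ligands and co-receptors (green) and 7 canonical WNT targets (purple), and the value of each array as a stroke. Filled points passed FDR 0.05. The intervals of 8 members include 0, that of *Celsr3* starts at 0.03, and those of *Wnt5a* and *Fzd7* end at -0.97 and -0.49.

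The remaining lists held no gene past FDR 0.05 in the fit reported, although *Fat1* passed with a variance trend on intensity and *Plcb4* with the mean over all probes. With the deposited series table *Daam2*, *Fzd6*, *Lix1l*, *Mapk8*, *Mapk10* and *Prickle4* passed, as did *Wnt4* of the ligands. In that setting, with fold changes rounded to 1 decimal, 2360 of all 20119 genes passed, so passing there says little about a gene. Among 8 further core components (the Dishevelled genes, *Fzd3*, *Fzd6*, *Prickle3*, *Prickle4* and *Ankrd6*) the median was -0.06, with *Prickle4* lowest at -0.29 and *Prickle3* highest at 0.20. In the Fat and Dachsous system, protocadherins that set the direction of polarity over longer distances, 5 of 7 genes tested were lower on both arrays and the median was -0.23. *Fat1*, the lowest of them, read 4216 with IWP-2 and 6417 in the control and then 4950.1 and 6750, with a mean of -0.51 (limma, adjusted p = 0.077). *Fjx1*, a secreted regulator of this system, was the highest, at 0.12. Scaffolds and turnover factors of core proteins had means between -0.10 (*Nos1ap*) and 0.08 (*Dlg1*), but 6 of the 7 tested differed in sign between the arrays, *Dlg1* with 0.49 and -0.33. Means of effectors at the cilium lay between -0.12 (*Rsg1*) and 0.07 (*Wdpcp*). The 14 cytoskeletal and JNK effectors had a median of 0.05, from -0.38 (*Daam2*, a formin) to 0.38 (*Mapk10*, a JNK kinase). The 13 genes of the calcium branch had a median of 0.01, from -0.47 (*Plcb1*, a phospholipase C) to 0.44 (*Nfatc1*, a calcineurin-dependent transcription factor). *Dchs2* and *Llgl1* were not well above background and were not tested.

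**Figure D5:**
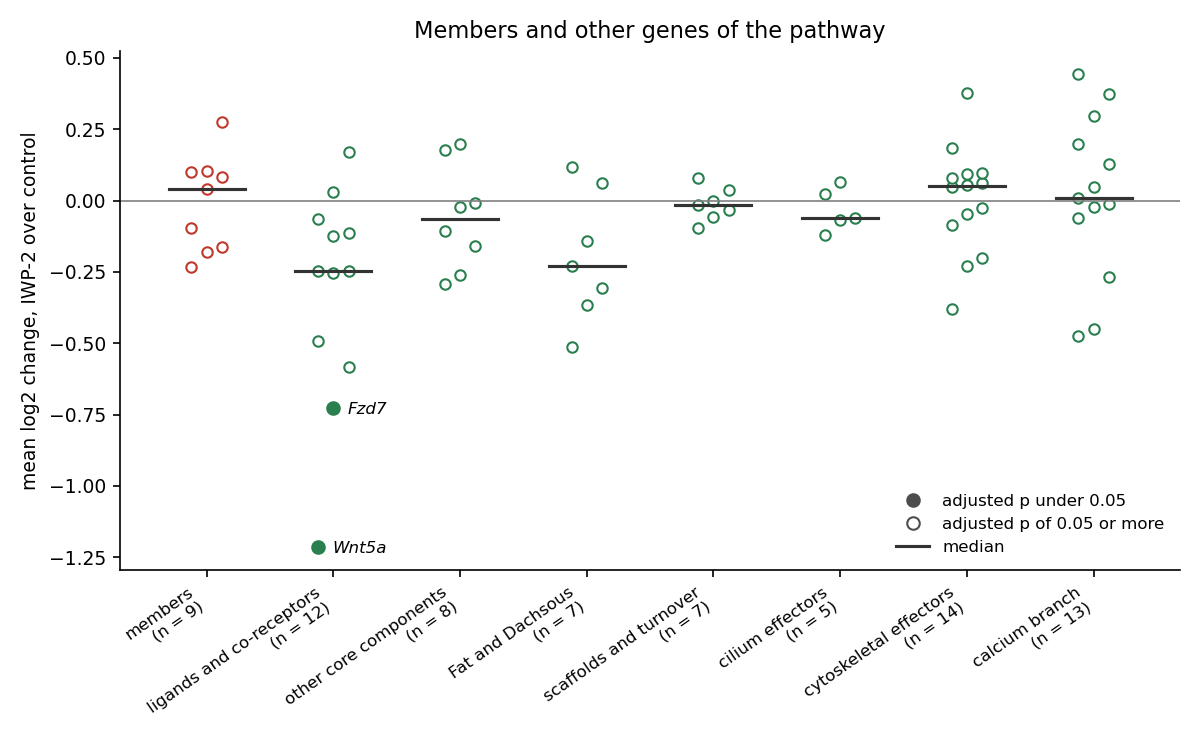
Mean log2 change of IWP-2 over control (vertical axis) for the 9 members tested and the 66 tested genes of the 7 other lists (columns, with the number of genes). Each point is a gene, filled points passed FDR 0.05 and horizontal lines are medians. Only *Wnt5a* and *Fzd7* are filled, and the median of the ligands and co-receptors is -0.25 against 0.04 for the members.

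The treatment itself was checked on canonical WNT targets. Of 7 such genes, 5 fell past FDR 0.05, by 0.89 to 1.31 on the log2 scale: *Lef1* and *Tcf7*, which encode TCF/LEF factors, *Sp5*, *Apcdd1* and *Nkd1*. *Axin2* had a mean of -1.01 (limma, adjusted p = 0.0502) and *Notum* one of -0.10. *Porcn*, the gene of the inhibited acyltransferase, had a mean of 0.09 with an interval from -0.19 to 0.37 (limma, adjusted p = 0.90). Whether the members differed from these targets in their response was not tested, and the values stand side by side.

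Markers of the explants' cell types were read on the same arrays. As a background for the counts below, 56% of all genes had the same sign on both arrays, in either direction. Of 6 genes of the ureteric mesenchyme, *Tbx18*, *Foxf1* and *Tcf21* fell past FDR 0.05. In this list 4 were lower on both arrays, *Twist1* was higher on both (mean 0.45) and *Meox2* mixed (mean 0.40), with a median of -0.48. The paper proposes *Foxf1* as a likely direct target of mesenchymal WNT signalling and reports *Tbx18* expression lost in *Ctnnb1*-deficient ureteric mesenchyme. A fall of these genes is therefore no count of mesenchymal cells. The summed intensity of the list was 15806 with IWP-2 and 23740.0 in the control on the first array and 16564 and 22104 on the second. Bright probes weigh most in this sum. Of 8 epithelial genes none passed, with a median of 0.16, and 4 were higher on both arrays, 2 lower and 2 mixed. Of 6 endothelial genes 6 were higher on both arrays (median 0.52, *Kdr* and *Cldn5* past FDR 0.05), as were 6 of 6 macrophage genes (median 0.39, *Adgre1* past FDR 0.05). For red blood cells 5 of 6 genes were higher on both arrays (median 0.49, none past FDR 0.05), and the 6 genes of kidney mesenchyme went both ways (median 0.08, 2 higher on both arrays, 2 lower and 2 mixed). Of these *Meox1* was past FDR 0.05, higher with IWP-2 (mean 0.96), whereas *Wt1* (mean -0.72) and *Osr1* (mean -0.56, limma, adjusted p = 0.0503) were lower on both arrays and did not pass. In RNA of whole explants fewer cells of a type and less RNA per cell cannot be told apart, and the part of these cell types in the values of *Wnt5a*, *Fzd7* and the members was not tested.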

How the data were processed

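Per the labels, 2 two-colour arrays compared RNA of ureter pools treated with IWP-2 with control pools, dyes swapped. The deposited scanner files hold intensities that the authors extracted with Agilent Feature Extraction (version 10.7.3.1 in the submitters' processing notes, 12.2.0.7 in the file headers). The deposited series table holds other values, signed fold changes of treated over control that the authors rounded to 1 decimal, and was used as an alternative. Mean intensities were background-corrected with normexp (offset 50) and normalized by loess within each array. Outlier-marked spots were left out and the remaining spots of a probe averaged, with a sign that gives IWP-2 over control. A probe was kept if over 0.5 of its 4 spots were well above background in 1 condition on both arrays (26947 probes), and a gene was represented by its brightest kept probe. limma (version 3.58.1, R 4.3.3) gave moderated tests on the log2 scale with Benjamini-Hochberg adjustment over all 20119 genes, or over all kept probes. Levels are geometric means of processed intensities. With 2 arrays, their number limits the precision. The procedure was tested on simulated data, whose changes were larger than that of any member, so the simulation does not cover changes of the members' size. Text names all members with every probe, other pathway genes past FDR 0.05 or at the ends of their list, and marker genes past FDR 0.05, beside genes chosen after their values were seen (*Gpc4*, *Wnt5b*, *Twist1*, *Meox2*, *Wt1*, *Osr1* and those that passed under an alternative alone). The members and gene lists were chosen with earlier results of these data known. Some markers of neurons and neural crest and 1 probe's sequence are not reported here.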

Additional observations from a re-analysis of the deposited data

How the results depend on the processing

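All 9 members kept their direction and stayed short of FDR 0.05 under 9 alternatives, which changed the background correction, the normalization, the filter on dim probes, the outlier-marked spots, the variance model, the probes of a gene or the source of the values. A variance model cannot change a mean. The members' means were also identical without the filter on dim probes and with outlier-marked spots kept. All alternatives use the same 2 arrays, so a kept direction is no independent evidence for it. The smallest adjusted p of a member in limma over these ranged from 0.255 to 1. Their 95% intervals spanned at most -0.69 to 0.70 (log2) with median centring in place of loess and -1.91 to 1.57 with the deposited series table. Of the member probes, 1 turned: the *Vangl2* probe A_55_P2117984 had a log2 change of 0.0105 with outlier-marked spots kept. Of the other pathway genes, *Dlg1* had -0.079 as the mean over all its probes. The number of all genes past FDR 0.05 was 43 with median centring, 119 without the filter on dim probes, 2360 with the deposited series table and 64 at an FDR of 0.01. The pathway genes past FDR 0.05 numbered 1 with processed intensities, 0 with median centring, 1 without the filter, 5 as means over all probes, 9 with the series table and 1 at an FDR of 0.01. With 1 array left out no test remains, and the members lay between -0.44 and 0.36 on the array of replicate 1 and between -0.13 and 0.20 on that of replicate 2. No paired analysis was possible because each ratio already pairs the 2 pools of its array and the replicate number marks no second group. The separate-channel model with a dye term could not be fitted, since 2 arrays leave no residual within spots. The alternatives for other pathway genes were chosen after seeing the data. Signal near background limits *Prickle2*, and in the fit reported no gene with a mean change under 0.57 passed.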
